A study of Mus musculus with 8 samples.

Results

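The genes described here are the heterogeneous nuclear ribonucleoprotein (hnRNP) genes and the RNA-binding motif (RBM) genes of the mouse suprachiasmatic nucleus (SCN), the paired hypothalamic nucleus that paces daily rhythms. They were chosen by symbol, as every gene of the sense-strand table whose symbol began with Hnrnp or with Rbm and a digit, without Rbm3, and with at least 10 reads in at least 2 of the 8 libraries. This gave 50 gene rows of the 15217 that passed the same read minimum and of the 20741 in the table: 18 hnRNP and 32 RBM rows. They carried 49 symbols, because Rbm15b stood in the table under 2 gene identifiers. Another 3 genes with matching symbols, Rbm44, Rbm46 and the pseudogene Hnrnpa1l2-ps, had too few reads. Rbm3, left out by name, had an edgeR 24-h adjusted p of 0.0621 and a fitted peak at CT9.67, with 184 and 204 CPM in the CT10 libraries and 98.7 to 121 CPM in the others.

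The tissue came from C57/BL6 mice that had been kept for 3 weeks in alternating 12-h light and dark and were then moved to constant darkness. All groups share strain, tissue and darkness, and the labels name no treatment and no altered gene. One library was made every 6 h from 22 to 64 h, each from a pool of equal amounts of RNA from 3 mice, by selection of polyadenylated RNA with a kit that keeps the strand. Libraries 24 h apart fell on the same circadian time (CT), which gave 4 groups of 2 libraries. CT4 and CT10 fell in the subjective day (below: day), and the other two, CT16 and CT22, in the subjective night (below: night). The labels state that collection began at CT18, whereas the first library is titled CT22. Libraries from the first cycle are called replicate 1 and those from the second replicate 2, a numbering that does not pair samples. No label names separate replicates, so every p-value measures the spread between pooled libraries and not between mice.

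hnRNPs bind nascent transcripts in the nucleus, where they act on splice-site choice, 3′ end formation, export and stability. RBM proteins are a looser family that share RNA-recognition domains and include spliceosome subunits, tissue splicing regulators, ribosome assembly factors and partners of the enzymes that write or erase N6-methyladenosine (m6A). Several hnRNPs are known to act on clock transcripts after transcription; hnRNP D, for example, speeds the decay of Cry1 mRNA in cultured cells. Whether the transcripts of these proteins themselves follow circadian time in the SCN is what the comparisons below address.

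Each library held 11123610 to 11131890 gene reads, 4196931 to 4199146 intron reads and 3196136 to 3437120 junction reads. All 10 SCN markers were present, with a summed level between 654 CPM (read counts scaled by library size) in CT16 replicate 2 and 1249 CPM in CT22 replicate 2. The sum was lowest in both CT16 libraries, with 739 CPM in replicate 1. Circadian time and the SCN content of the piece cannot be told apart in it. The summed level of 12 oligodendrocyte markers ran from 5112 CPM in CT4 replicate 1 to 15983 CPM in CT16 replicate 2, and both CT10 libraries were among the 3 highest, with 15325 and 13132 CPM. In these bulk libraries, fewer cells of a type and less RNA per cell cannot be told apart.

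Levels of the members were compared as CPM per kb of exon. Hnrnpa2b1, which encodes a splicing and RNA-transport protein known for carrying Mbp mRNA in oligodendrocytes, had the highest level, 306 CPM per kb. It was followed by Hnrnpk with 208, Hnrnph1 with 103, Rbm39 with 97.2 and Hnrnpl with 92.7 CPM per kb. At the other end stood Rbm47 with 0.157, Rbm42 with 0.311, Rbm20 with 0.502, Rbm41 with 0.621 and Rbm38 with 0.880 CPM per kb. The hnRNP A/B genes spanned 21.5 (Hnrnpd) to 306 CPM per kb. The 8 RBM genes listed under tissue-specific splicing lay between 0.157 and 11.2 CPM per kb (Rbm45). Copies of near-identical sequence, such as those of Hnrnpa1 and Hnrnpa3, can exchange reads, and how the authors' counting treated them is not given in the sources used here.

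No member gene passed the 24-h test at an adjusted p of 0.05 (edgeR quasi-likelihood F test), 0 of 50, against 0.112% of all genes tested. At an unadjusted p under 0.05 there were 9 members, 18% of the 50, against 8.6% of all genes. On the day-night axis, CT4 and CT10 against CT16 and CT22, 0 of 50 passed (0.105% of all genes), and 8 had an unadjusted p under 0.05 (7.72% of all genes). All 8 of these were lower by day, a direction and threshold that 4.97% of all genes met. On the dusk-dawn axis, CT10 and CT16 against CT22 and CT4, 0 of 50 passed (0.0197% of all genes), and 7 had an unadjusted p under 0.05 (7.84% of all genes), 5 of them lower at dusk (3.64%). Counting any size of difference, 34 of 50 members were lower by day (52% of all genes) and 32 were lower at dusk (48.6%). The median day-to-night fold of the members was 0.960, against 0.994 over all genes, and the median dusk-to-dawn fold was 0.953 against 1.0. On the log2 scale the day-night median was -0.06, and it was -0.031 with at least 50 reads, -0.039 without CT10 replicate 1, -0.09 without CT4 replicate 2 and -0.091 with a term for the share of junction reads on first junctions.

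The day and night libraries did not overlap for 6 members with lower counts by day, Hnrnpm, Rbm14, Rbm12b, Rbm28, Hnrnph3 and Rbm4b, 12% of members against 2.75% of all genes. None had counts that were higher in every day library, which 1.91% of all genes did. Reads of Rbm4b are uncertain, because its near-identical relative Rbm4 has no row among the members. The dusk and dawn libraries were apart for Rbm33 and Hnrnpd, both lower at dusk, 4% of members against 1.95% of all genes. In the authors' deposited table, 8 of 50 members had an adjusted p of the JTK rhythm test under 0.05, against 3.36% of all genes with the read minimum, and none had a q-value under 0.05. In the authors' deposited table, Rbm14, Hnrnpc and Rbm42 had an adjusted p of 0.00694 and Hnrnpm, Rbm12b, Rbm4b, Hnrnpa1 and Hnrnpk one of 0.022.

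**Figure D1:**
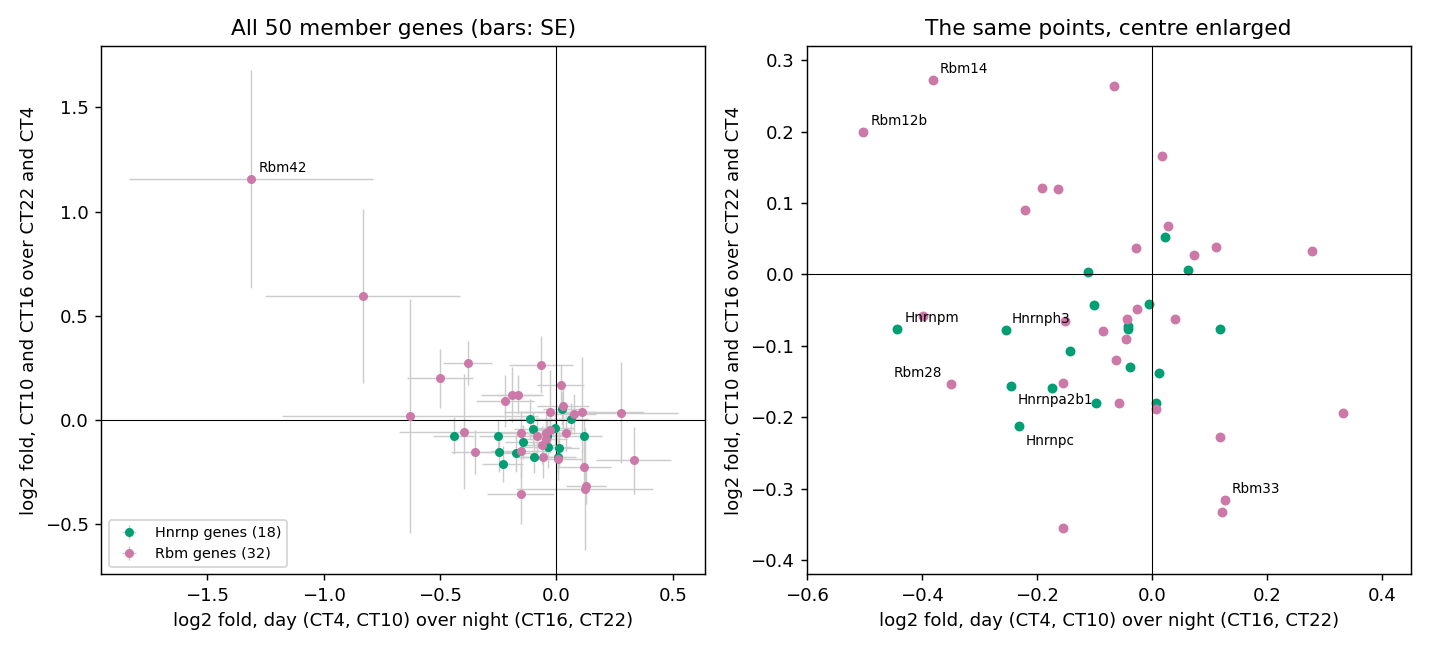
Fitted log2 fold of each of the 50 member genes by day over night (horizontal axis) and by CT10 and CT16 over CT22 and CT4 (vertical axis), all points with their standard errors at left and the centre enlarged at right. Of the 50 points, 34 lie left of zero and 32 below it, and Rbm42, with 2 to 21 reads per library, lies farthest out.

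Among the hnRNP genes, Hnrnpm (mm9 chr17:33783129-33823964) had the lowest p. Its product is a splicing regulator that binds GU-rich intronic RNA. Hnrnpm had 134 and 136 CPM in the CT4 libraries, 116 and 126 CPM at CT10, 164 and 185 CPM at CT16, and 187 and 159.6 CPM at CT22. Every day library was thus below every night library, and the 2 lowest were those of CT10. The fitted peak-to-trough difference was 0.63 ± 0.12 on the log2 scale (SE, 8 libraries), with a peak at CT19.7. The 24-h test did not pass (edgeR adjusted p = 0.141), nor did the day-night term, with a log2 fold of -0.44 ± 0.09 and an adjusted p of 0.0756. The call depended on the method: DESeq2 passed Hnrnpm in the 24-h test with an adjusted p of 0.00444, and edgeR without a read minimum did so with 0.00287. These settings called more genes of any kind, 96 of 15217 and 362 of 20741, against 17 in the main fit. The range over all alternatives of the 24-h test was 0.00287 to 0.534.

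Hnrnpc (mm9 chr14:52692877-52723717) encodes the hnRNP that binds uridine tracts and keeps splice factors away from cryptic exons. It had 269.5 and 266.5 CPM at CT4, 229 and 191 CPM at CT10, 265 and 278 CPM at CT16, and 279 and 293 CPM at CT22. The CT10 libraries were the 2 lowest and the CT22 libraries the 2 highest, and the fitted peak was CT21.8 (edgeR adjusted p = 0.440). Hnrnpa2b1 had 1225 and 1400.5 CPM at CT4, 1024.4 and 1024.3 CPM at CT10, 1320.5 and 1471 CPM at CT16, and 1351 and 1356 CPM at CT22. The CT10 libraries again lay below the other 6, although day and night overlapped through CT4 replicate 2 (edgeR adjusted p = 0.563). For Hnrnph3, a smaller relative of the G-run binding hnRNP H proteins, the 4 day libraries lay between 106 and 125 CPM and the 4 night libraries between 128 and 143 CPM (edgeR adjusted p = 0.488). Hnrnph1, which acts on the same G-rich elements, had 439.7 and 497 CPM at CT10 and 556 to 618 CPM in the other 6 libraries (edgeR adjusted p = 0.601). Hnrnph1 and its near-identical relative Hnrnph2 could share reads.

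Hnrnpd and Hnrnpul2 had their lower unadjusted p on the dusk-dawn axis, where neither passed. Hnrnpd, whose product AUF1 promotes decay of AU-rich mRNAs, had 147 and 142 CPM at CT16, 150.2 and 157 CPM at CT10, 166 and 163.5 CPM at CT4, and 174 and 172 CPM at CT22. Every dusk library (CT10 and CT16) lay below every dawn library, with a log2 fold of -0.18 ± 0.08 and an edgeR adjusted p of 0.597. Hnrnpul2, a relative of the nuclear-matrix protein hnRNP U, had a dusk-to-dawn fold of 0.882, with overlapping libraries and an edgeR adjusted p of 0.597. By subfamily, 6 of 6 hnRNP A/B genes, 3 of 4 F/H genes, 3 of 4 K, L, M and R genes and 2 of 3 U genes were lower at dusk, with medians of 0.921, 0.928, 0.950 and 0.971. Hnrnpa1, Hnrnpk, Hnrnpul1, Hnrnpd and Hnrnph2 were the 5 of the 18 hnRNP genes that were not lower by day. Their day-to-night folds were at most 1.09, that of Hnrnpa1.

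Among the RBM genes listed under tissue-specific splicing, Rbm14 (mm9 chr19:4784173-4811680), which encodes a coactivator and paraspeckle protein, had the lowest p. Rbm14 had 25.0 and 24.1 CPM at CT4, 29.7 and 33.1 CPM at CT10, 39.3 and 38.1 CPM at CT16, and 33.5 and 34.2 CPM at CT22. Both cycles ran through the same order, lowest at CT4 and highest at CT16, and the fitted peak was CT16.6 with a peak-to-trough difference of 0.66 ± 0.15 on the log2 scale (edgeR adjusted p = 0.266). Rbm38, an mRNA-stability factor of the p53 pathway, had 10 to 56 reads per library with overlapping groups (edgeR adjusted p = 0.625). For Rbm11, a splicing factor of brain and testis, the day-to-night fold was 1.26 (edgeR adjusted p = 0.625). Rbm45, an RNA-binding protein of the developing nervous system, had a dusk-to-dawn fold of 0.782 (edgeR adjusted p = 0.581). Of the 8 genes of this list, which also holds genes described by other functions, 6 were lower by day. Their median day-to-night fold was 0.878.

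Of the 10 RBM genes of the spliceosome and the exon junction, 7 were lower by day, with a median fold of 0.964. Rbm42, which is found in the spliceosome before its activation, had 5 and 2 reads at CT4, 6 and 13 at CT10, 21 and 21 at CT16, and 13 and 8 at CT22. These low counts gave a fitted log2 day-night fold of -1.31 ± 0.53 and an edgeR adjusted p of the 24-h test of 0.470. The gene overlaps Haus5 by coordinates, so its reads are uncertain if both lie on the same strand. Overlaps with another listed gene were also found for Hnrnpm, Hnrnph3 (with Rufy2), Hnrnpd, Hnrnpk (with Rmi1), Hnrnpab, Hnrnpul2 (with Ttc9c), Hnrnpu, Hnrnpf, Rbm10, Rbm26, Rbm18, Rbm7, Rbm20, Rbm12 (with Nfs1) and Rbm15b (with Manf). These overlaps were taken from coordinates, without regard to strand. The gene counts are of the sense strand, so reads in a shared stretch are uncertain where both genes lie on the same strand. Which overlaps are of that kind was not checked. The abundant spliceosome partners in this group, Rbm39, Rbm25, Rbm5 and Rbm17, had day-to-night folds between 0.970 and 1.05.

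Rbm33 (mm9 chr5:28643632-28746351), whose product is an RNA-binding partner of the m6A eraser Alkbh5, followed a course unlike that of most members. It had 161 and 172 CPM at CT4, 118 and 123 CPM at CT10, 116 and 129.5 CPM at CT16, and 136 and 139 CPM at CT22. Both CT4 libraries were the highest of their cycle, and every dawn library (CT22 and CT4) lay above every dusk library. The fitted peak was CT2.46 and the dusk-dawn log2 fold -0.32 ± 0.09 (SE), with an unadjusted edgeR p of 0.00242 and an adjusted p of 0.382. For the m6A-writer and export genes Rbm15, Rbm15b, Rbm26 and Rbm27, and for Rbm7 of the exosome-targeting complex, no 24-h test had an unadjusted edgeR p under 0.05. Rbm28 (mm9 chr6:29073378-29115057), which encodes a nucleolar ribosome-assembly factor, had 78.3 and 83.0 CPM at CT4, 64 and 57.2 CPM at CT10, and 85.7 to 95.2 CPM in the 4 night libraries (edgeR adjusted p = 0.436). The other 2 ribosome-assembly genes, Rbm34 and Rbm19, had unadjusted edgeR p-values of 0.114 and 0.972. Rbm12b had 12.1 and 12.5 CPM at CT4, 12.2 and 14.6 CPM at CT10, 21.1 and 18.9 CPM at CT16, and 16.8 and 16.2 CPM at CT22 (edgeR adjusted p = 0.385). Rbm12 shares its locus with Cpne1 and Nfs1, so its reads are uncertain.

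**Figure D2:**
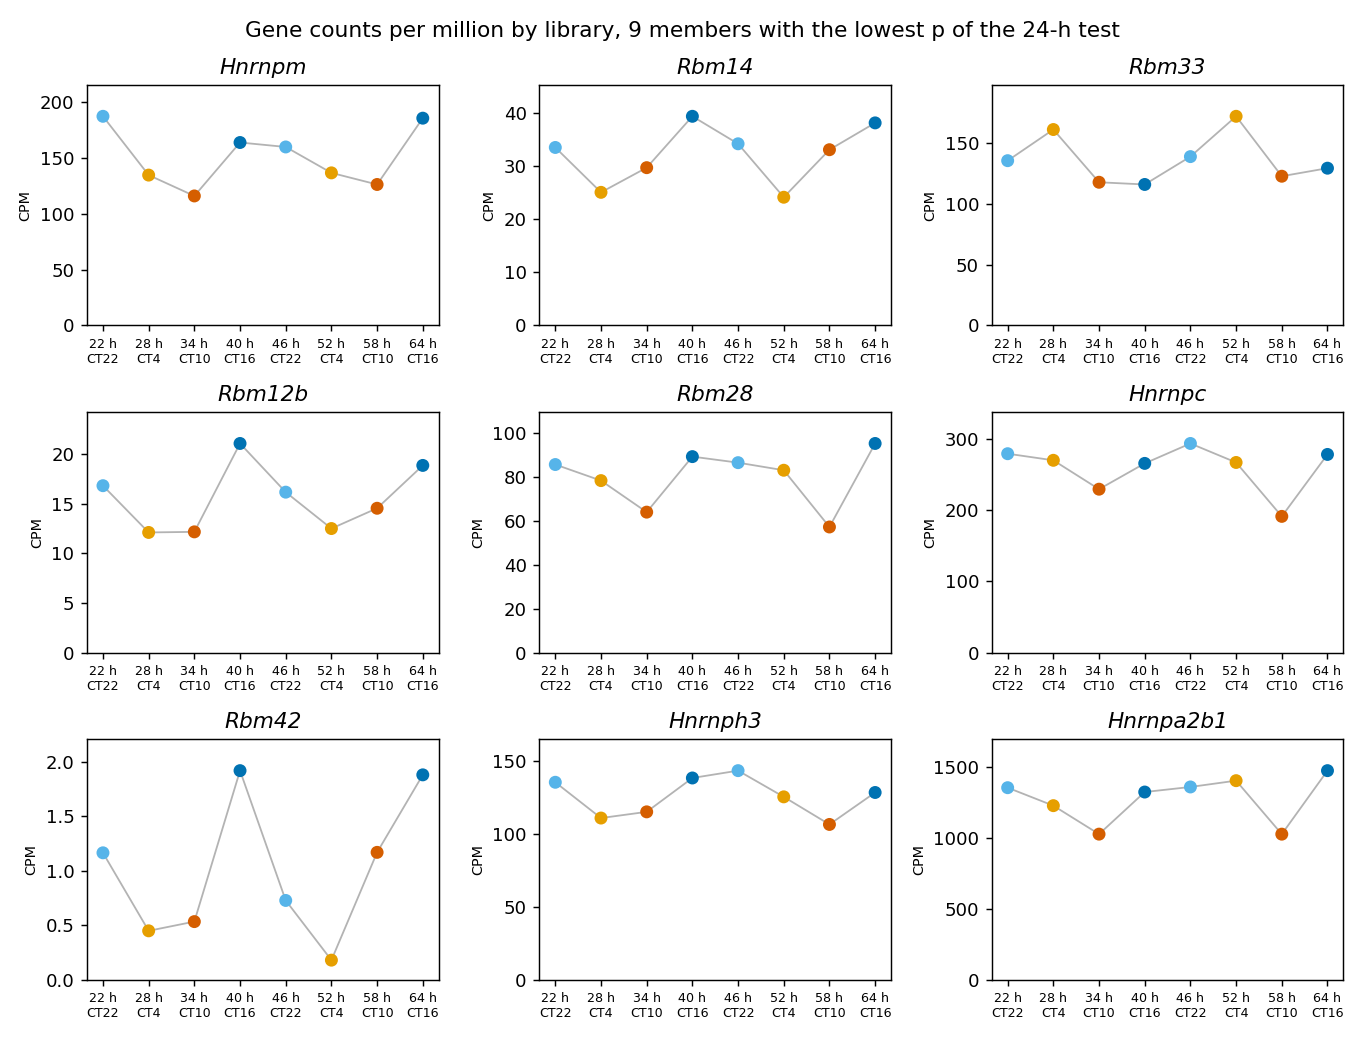
Gene counts in CPM (vertical axes, from 0) by time of collection for the 9 member genes with an unadjusted p under 0.05 in the 24-h test, 1 point per library, coloured by circadian time. Hnrnpm, Rbm14, Rbm12b, Rbm28 and Hnrnph3 have all 4 day libraries below all 4 night libraries, and Hnrnpm, Rbm28, Hnrnpc and Hnrnpa2b1 have their 2 lowest values at CT10.

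As a sum, the hnRNP and RBM genes were lowest at CT10. Their share of gene reads was 0.733% and 0.728% in the CT10 libraries and 0.794% to 0.846% in the other 6. Their share of junction reads was 1.14% and 1.12% at CT10 and 1.28% to 1.37% elsewhere. The 95% Wilson interval of a share reached at most 0.0054 percentage points to either side for gene reads and 0.013 for junction reads, and it covers counting error only. Without Hnrnpa2b1, the member with most reads, the share of gene reads was 0.63% and 0.626% at CT10 and 0.672% to 0.706% elsewhere. Without the 5 members with most reads (Hnrnpa2b1, Hnrnpk, Hnrnpu, Hnrnph1 and Hnrnpa3), it was 0.417% and 0.415% at CT10 and 0.442% to 0.47% elsewhere. Both CT10 libraries were the 2 lowest for 13 of 50 members, 26%, against 7.77% of all genes. This pattern was looked for after the values had been seen, and no test was made of it. The 13 were Hnrnpa2b1, Hnrnpa3, Hnrnpc, Hnrnph1, Hnrnpm, Hnrnpr, Hnrnpu, Rbm25, Rbm26, Rbm27, Rbm28, Rbm39 and Rbm6. The same held for 59 of 405 member junctions, 14.6%, against 4.38% of all junctions. Junctions of 1 gene share its level, so they are not separate from the pattern of the genes. Only 1 member, Hnrnpk, had both CT10 libraries as the 2 highest (6.73% of all genes).

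The oligodendrocyte sum was high in the same CT10 libraries, as given above, and its part in the CT10 values was not tested directly. Precursor marker sums were 296 and 302 CPM at CT10 and 219 to 295 CPM elsewhere. Microglia marker sums were 413 and 373 CPM at CT10 and 298 to 377 CPM elsewhere. No other marker list was high in both CT10 libraries. CT16 replicate 2 had the highest oligodendrocyte sum, 15983 CPM, and a member share of 0.827%, which is 1 library only and decides nothing. With the oligodendrocyte score as a term in the model, 0 of 50 members passed the 24-h test of edgeR, and Hnrnpm passed the day-night test with an adjusted p of 0.0472. That fit called 34 of 15217 genes on the day-night axis, against 16 without the term.

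**Figure D3:**
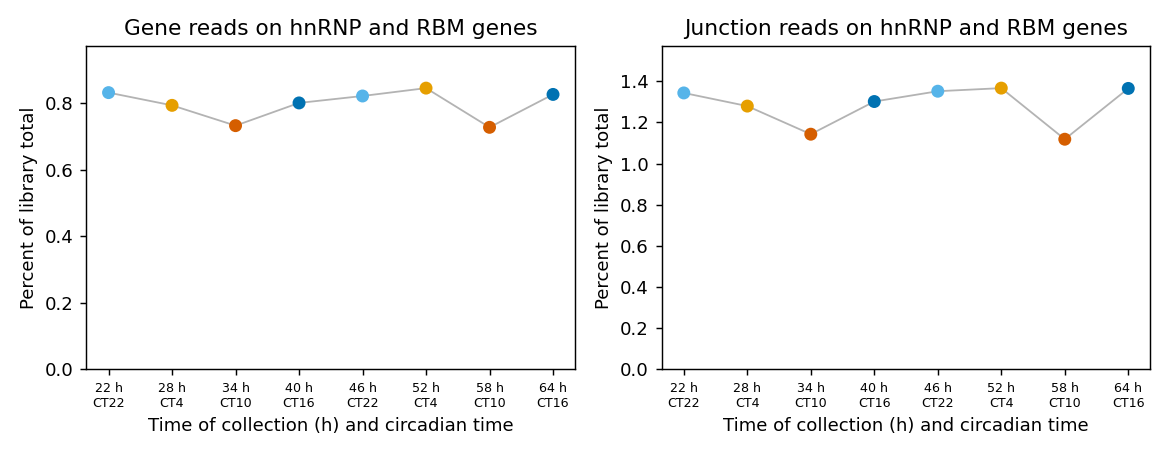
Share of all gene reads (left) and of all junction reads (right) that fell on hnRNP and RBM genes, in percent, by time of collection, 1 point per library. The CT10 libraries at 34 and 58 h hold the lowest shares in both panels, 0.733% and 0.728% of gene reads and 1.14% and 1.12% of junction reads.

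In the 12-h test, CT4 and CT16 against CT10 and CT22, 0 of 50 members passed (0% of all genes), and 4 had an unadjusted p under 0.05 by edgeR (7.47% of all genes): Rbm28, Hnrnpa2b1, Rbm26 and Rbm6. None of the 50 differed between the 2 cycles (0% of all genes), and none had an unadjusted p under 0.05 there (3.57%), and DESeq2 called none of the 50 in either test.

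Other genes of the pathway, from fixed lists outside the symbol rule, were read in the same fit, and in each of the 4 lists 0 passed the 24-h test of edgeR. Of 35 hnRNP-like and neuronal splicing genes, 25 were lower by day (52% of all genes were), 8 of them with an unadjusted edgeR p under 0.05 (4.97% of all genes), and the median fold was 0.946. Khdrbs3, a STAR-family splicing factor, had a day-night log2 fold of -0.36 ± 0.12, and Mbnl1, the muscleblind splicing regulator, -0.25 ± 0.09. Hnrpdl, the older symbol of an hnRNP D relative, went the other way, at 0.18 ± 0.08. Of 7 kinases that act on splicing factors, 6 were lower by day, with Clk1 at -0.35 ± 0.10. Of 32 core spliceosome genes, 13 were lower by day, with a median fold of 1.02 and no unadjusted p under 0.05. Of 12 genes of nonsense-mediated decay and the exon junction, 6 were lower by day (median fold 1.0).

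Intron reads were read next, as a view of unspliced or intron-retaining RNA. The libraries were polyadenylated, and the totals of the gene and intron tables were each nearly equal across libraries, so only relative levels were compared. Summed over introns, 46 member genes could be tested and 0 passed (0.268% of all genes). With an unadjusted edgeR p under 0.05 there were 4, 8.7% of members against 10.7% of all genes, namely Rbm28, Hnrnpab, Hnrnph1 and Rbm12. By day, 35 of 46 were lower at any size (53% of all genes), and at dusk 34 (57.6%). On the day-night axis 0 of 46 passed (0.13%) and 4 had an unadjusted edgeR p under 0.05 (7.83%), all lower by day (4.56%). On the dusk-dawn axis 0 passed (0.187%) and 2 had such a p (10.1%), 1 of them lower at dusk (7.05%). Intron reads per 100 gene reads had a median of 24 over the 46, on the scale of these 2 tables. The highest were Rbm42 with 579.8, Rbm15 with 353, Rbm41 with 349, Rbm14 with 283 and Rbm38 with 213. For Rbm14 (56849 bases), Rbm12 (30285), Rbm4b (15423) and Rbm42 (11519), the summed introns covered more bases than the gene row spans. Part of these introns thus lay outside the gene row, where reads can come from other genes. Where an exon of another transcript lies inside an intron, its reads count for both. Without such introns the values were 119 for Rbm42, 353 for Rbm15, 6.00 for Rbm41, 8.12 for Rbm14 and 203 for Rbm38.

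In the 24-h test of the ratio of intron to gene reads (limma), 0 of 46 passed (0.0083% of all genes), and 5 had an unadjusted p under 0.05 (8.56%). Hnrnpm was one of them. Its intron reads numbered 603 and 517 at CT4, 619 and 592 at CT10, 489 and 587 at CT16, and 566 and 567 at CT22, with day and night overlapping. The day-night log2 fold of its intron reads was 0.07 ± 0.11, beside -0.44 ± 0.09 for its gene reads. The ratio was higher by day by 0.51 on the log2 scale (limma adjusted p = 0.178). Rbm14 showed the same arrangement, with 919 to 1014 intron reads by day, 983 to 1120 by night and a ratio difference of 0.28 (limma adjusted p = 0.254). The summed introns of Rbm14 reached outside its gene row, so these reads are not those of Rbm14 alone. The others were Rbm42, Hnrnpab and Rbm33. For Rbm14, Hnrnpm and Rbm33 most of the intron reads lay in introns that contain an exon of another transcript. Without those introns, intron reads per 100 gene reads went from 283 to 8.12 for Rbm14, from 33.8 to 8.54 for Hnrnpm and from 9.99 to 0.92 for Rbm33, so the sums cannot be read as unspliced RNA alone. On the introns without a listed exon, 0 members passed the ratio test of limma, against 6 of all 10149 genes tested.

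Of 347 single member introns, 0 passed the 24-h test (0.0934% of all introns), and 31 had an unadjusted edgeR p under 0.05 (8.93% against 7.85%). Lower values by day were found in 203 of the 347 (51.1% of all introns) and at dusk in 208 (52.3%). Introns of 1 gene are not independent of each other. Between day and night 0 passed (0.0354%), and 35 had an unadjusted edgeR p under 0.05 (6.78%), 25 of them lower by day (3.85%). Between dusk and dawn 0 passed (0.0467%), and 17 had such a p (7.34%), 8 of them lower at dusk (4.47%). The lowest p was that of an intron of Rbm28 (mm9 chr6:29105190-29107067), with 44 and 37 reads at CT4, 24 and 11 at CT10, 59 and 65 at CT16, and 71 and 71 at CT22. All day libraries lay below all night libraries, and the edgeR adjusted p was 0.0913. An intron of Rbm7 (chr9:48302287-48303259), a subunit of the exosome-targeting complex, went the other way, with 19 to 43 reads by day and 7 to 11 by night (edgeR adjusted p = 0.217). An intron of Rbm6 (chr9:107689730-107690109) had 19 to 42 reads by day and 52 to 64 by night (edgeR adjusted p = 0.342). Another of Rbm6 (chr9:107686117-107689582) had 10 to 22 reads by day and 16 to 45 by night (edgeR adjusted p = 0.380). The first intron of Hnrnpa3 (chr2:75497381-75499522) held 122 reads in CT22 replicate 1 and 9 to 40 in the other 7 libraries (edgeR adjusted p = 0.227). The Hnrnpa3 junction described below (chr2:75497447-75499522) starts inside this intron. Exon reads of that spliced form can therefore count here, and the 2 results are not separate. The remaining intron of the 6, in Rbm22, had 3 to 39 reads with day and night overlapping.

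Among 405 member junctions, 1 passed the 24-h test of edgeR, against 0.0179% of all junctions. At an unadjusted p under 0.05 there were 44, 10.9% against 5% of all junctions. On the day-night axis 0 passed (0.00128% of all junctions) and 45 had an unadjusted edgeR p under 0.05 (4.72%), 44 of them lower by day (3.28%). On the dusk-dawn axis 0 passed (0% of all junctions) and 30 had such a p (5.18%), 27 of them lower at dusk (3.48%). At any size, 278 of 405 were lower by day (54.4%) and 270 at dusk (54.3%). Junctions of 1 gene share its level, so these counts are not counts of independent units. The members' median day-to-night fold over junctions was 0.905, against 0.970 over all junctions, and their median dusk-to-dawn fold was also 0.905 against 0.970.

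The junction that passed was the first of Hnrnpa3 (mm9 chr2:75497447-75499522), whose product is an A/B-type hnRNP. It had 145 reads in CT22 replicate 1, 26 in CT16 replicate 2, and 0 to 8 in the other 6 libraries (edgeR adjusted p = 0.0330). The 0 reads of CT4 replicate 1 allow up to 3. The other library of CT22 had 8 reads. The junction missed the read minimum without CT22 replicate 1 or without CT16 replicate 2. Without CT4 replicate 1, CT4 replicate 2, CT10 replicate 1 or CT10 replicate 2 it had an edgeR adjusted p of 0.0802, 0.0706, 0.174 and 0.147, and DESeq2 gave it no adjusted p. A second donor 66 bases upstream (chr2:75497381-75499522) is joined to the same acceptor, and its junction had 4 reads in CT22 replicate 1 and 4 to 29 in the other libraries. Usage of junctions within a gene differed between day and night for Hnrnpa3, 1 of 38 members tested, against 0.0116% of all genes (Simes test of edgeR, adjusted p = 0.0103). This call was absent on leaving out CT16 replicate 2, CT22 replicate 1 or CT4 replicate 1 (edgeR adjusted p = 1 for each), and also CT4 replicate 2 (edgeR adjusted p = 0.315). An unadjusted p under 0.05 was reached by 3 of 38 members (7.89%) and by 2.84% of all genes. Hnrnpu (adjusted p = 0.618), Hnrnpd, Rbm5 and Hnrnpa1 (each 1) had the next lowest p. Between dusk and dawn 0 of 38 passed (0% of all genes), none had an unadjusted edgeR p under 0.05 (1.22%), and the lowest were Hnrnpa3, Hnrnpc, Rbm10, Rbm33 and Rbm34.

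Reads on first junctions were also more frequent in those libraries among genes that are not members. In 4667 other genes with at least 6 junctions, the 5′-most junction held 5.73% of junction reads in CT22 replicate 1 and 5.13% in CT16 replicate 2, against 3.79% to 4.58% in the other 6. In 28 members it held 3.23% and 2.92% in these libraries and 1.93% to 2.35% elsewhere. With this share as a term in the model, chosen after the data had been seen, no member junction passed, and the Hnrnpa3 junction had an edgeR adjusted p of 0.962. The term is highest in the same libraries that held most reads of that junction. By its shape it takes up the signal, so the loss of the call decides nothing, and the part of the share was not tested. The first junction of Hnrnpu, the scaffold-attachment hnRNP, chosen after its values were seen, followed the same libraries, with 54 reads in CT22 replicate 1, 12 in CT16 replicate 2 and 0 to 6 elsewhere (edgeR adjusted p = 0.616).

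**Figure D4:**
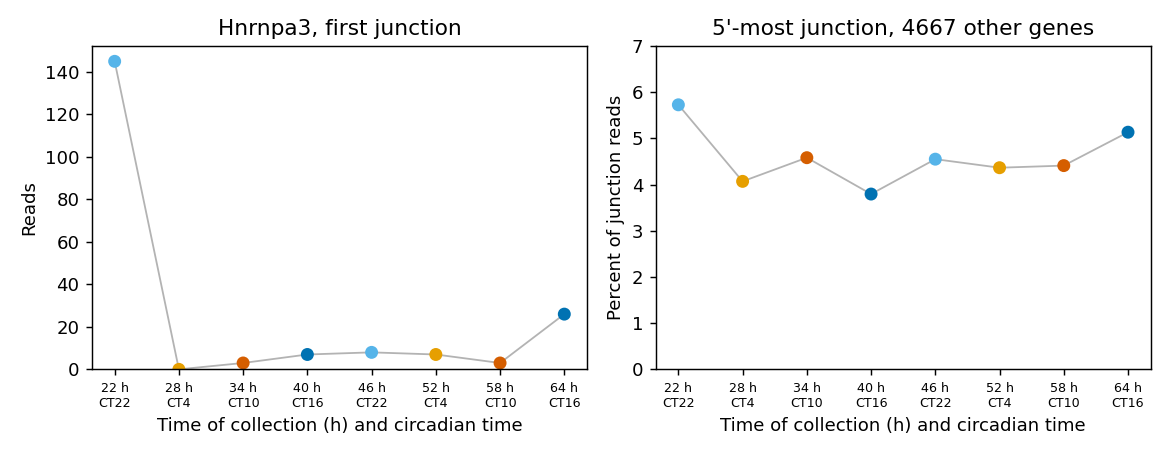
Reads on the first junction of Hnrnpa3 (left) and, in 4667 other genes, the percent of junction reads on the 5′-most junction (right), by time of collection, 1 point per library. CT22 replicate 1 at 22 h is highest in both panels, with 145 reads and 5.73%, and CT16 replicate 2 at 64 h is second in both, with 26 reads and 5.13%.

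Spliced sequences are shown for 4 junctions described above or below, of which only that of Hnrnpa3 passed, to let them be found in reads. Each is 15 bases of the upstream exon in lower case and 15 of the downstream exon in capitals, 5′ to 3′, from GENCODE M21 transcripts on GRCm38, matched within the gene by intron length.
Hnrnpa3 first junction, plus strand, GRCm38 chr2:75659390-75661465: cgccggggggaggagGGCCATGATCCAAAG
Hnrnpu first junction, minus strand, GRCm38 chr1:178336159-178336952: aacagcaggcgggagGAGACGGCAAAACAG
Hnrnpc first junction, minus strand, GRCm38 chr14:52098041-52103888: ctctccttccttttgTGAGATTTTTTTGAT
Hnrnpm second junction, minus strand, GRCm38 chr17:33670134-33677273: tggttaaagaaaaagTTGGTGAGGTAACAT

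Of the other junctions with the lowest p, none passed. The Hnrnpc first junction (mm9 chr14:52717716-52723563) had 76 and 100 reads at CT10 and 116 to 278 elsewhere (edgeR adjusted p = 0.293). The second Hnrnpm junction (chr17:33807079-33814218) had 58 to 82 reads by day and 112 to 170 by night, apart as for the gene itself (edgeR adjusted p = 0.379). A junction of Hnrnph3 (chr10:62480974-62481507) had 33 to 43 reads by day and 46 to 121 by night (edgeR adjusted p = 0.407). A second junction of Hnrnpc (chr14:52695091-52695287) had 39 and 60 reads at CT10 and 125 to 173 elsewhere (edgeR adjusted p = 0.408). A junction of Hnrnpa2b1 (chr6:51414211-51414426) had 460 and 518 reads at CT10 and 610 to 933 elsewhere (edgeR adjusted p = 0.455). In 3 of these 5 junctions, both of those of Hnrnpc among them, the CT10 libraries were the 2 lowest (4.38% of all junctions). The 5 were picked by a 24-h test on the same reads, so this count adds nothing to the CT10 pattern.

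Alternative exons of the members were described from junction reads, as the mean of the 2 inclusion junctions over that mean plus the skipping junction. This was chosen after the data had been seen. Among the members, 15 annotated exons had all 3 junctions above the read minimum, every one in an hnRNP gene. Day and night libraries did not overlap for 3 of the 15, in Hnrnpa1, Hnrnpr and Hnrnpd, against 3.75% of 506 such exons in all genes. By an exact permutation test (two-sided, 4 libraries against 4), each of these 3 had p = 0.0286, the smallest this design allows, which restates that their libraries did not overlap. The p adjusted over the 506 exons, 0.657 for each of the 3 (exact permutation test), is fixed by that smallest value and by how many exons reach it, and it says nothing of stability.

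The 159-base exon of Hnrnpa1, whose inclusion gives the longer hnRNP A1-B protein, had an inclusion level, from junction reads with the inclusion junctions averaged, of 19.6% and 18.7% at CT4 and 17.6% and 16.9% at CT10. The level was 22.2% and 24.8% at CT16 and 26.7% and 24.1% at CT22. The mean was 18.2% ± 1.21 by day and 24.4% ± 1.86 by night (SD, 4 libraries each), a difference of -6.22 percentage points, with the lowest value of each cycle at CT10. The 95% Wilson interval of a single library reached 3.60 to 4.14 points to either side and covers counting error only. Reads into the exon numbered 83 to 129 by day and 118 to 177 by night, reads out of it 34 to 59 and 47 to 78, and skipping reads 285 to 375 and 300 to 352. The 2 inclusion junctions gave unlike levels, so the level itself is uncertain. The junction into the exon alone gave 21.9% to 26.7% by day and 28.2% to 34.8% by night, a difference of -7.56 points (exact permutation p = 0.0286). The junction out of it alone gave 8.76% to 13.6% by day and 12.5% to 18.1% by night, with overlapping groups and a difference of -4.10 points (exact permutation p = 0.0571). The gene reads of Hnrnpa1 had a day-to-night fold of 1.09.

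The 57-base exon of Hnrnpd had an inclusion level of 92.2% to 100% by day and 64% to 89.1% by night. The 95% Wilson interval of a single library had a half-width of 4.82 to 14.7 points. The lowest day and highest night values were thus apart by less than the counting error. Skipping reads were few, and the 0 of CT4 replicate 1 allow up to 3. They numbered 16 in CT22 replicate 1, 15 in CT16 replicate 2 and 0 to 6 in the other libraries. The 2 libraries with most skipping were again those with high first-junction shares, and the part of that share was not tested. The 147-base exon of Hnrnpd lay between 74.2% and 89.7% with day and night overlapping. These 2 exons are combined in different ways in the AUF1 isoforms. The 166-base exon of Hnrnpr was included in 74.6% ± 3.54 by day and 81.2% ± 2.49 by night (SD, 4 libraries each), on at least 22 reads per library. Its highest day value, 78.6%, was barely below its lowest night value, 78.8%. The 95% Wilson interval of a single library reached 10.9 to 17.5 points to either side, so the groups were apart by less than the counting error. The 120-base exon of Hnrnpa2b1 was included in 94.8% to 98.1% and the 141-base exon of Hnrnpab in 16.9% to 32.6%, both with overlapping groups. The other 9 exons, in Hnrnpa2b1, Hnrnpc, Hnrnph1, Hnrnph2, Hnrnph3, Hnrnpk and Hnrnpl, overlapped between day and night as well. Some of them were ordered by a single time. Both CT10 libraries were lowest for the 26-base Hnrnpc exon (67.2% and 72.9%) and the 136-base Hnrnpa2b1 exon (87.0% and 78.4%). Both CT16 libraries were highest for the 226-base Hnrnpa2b1 exon (25.6% and 34.2%). These were picked after the values were seen, were not tested, and have no share over all exons beside them.

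**Figure D5:**
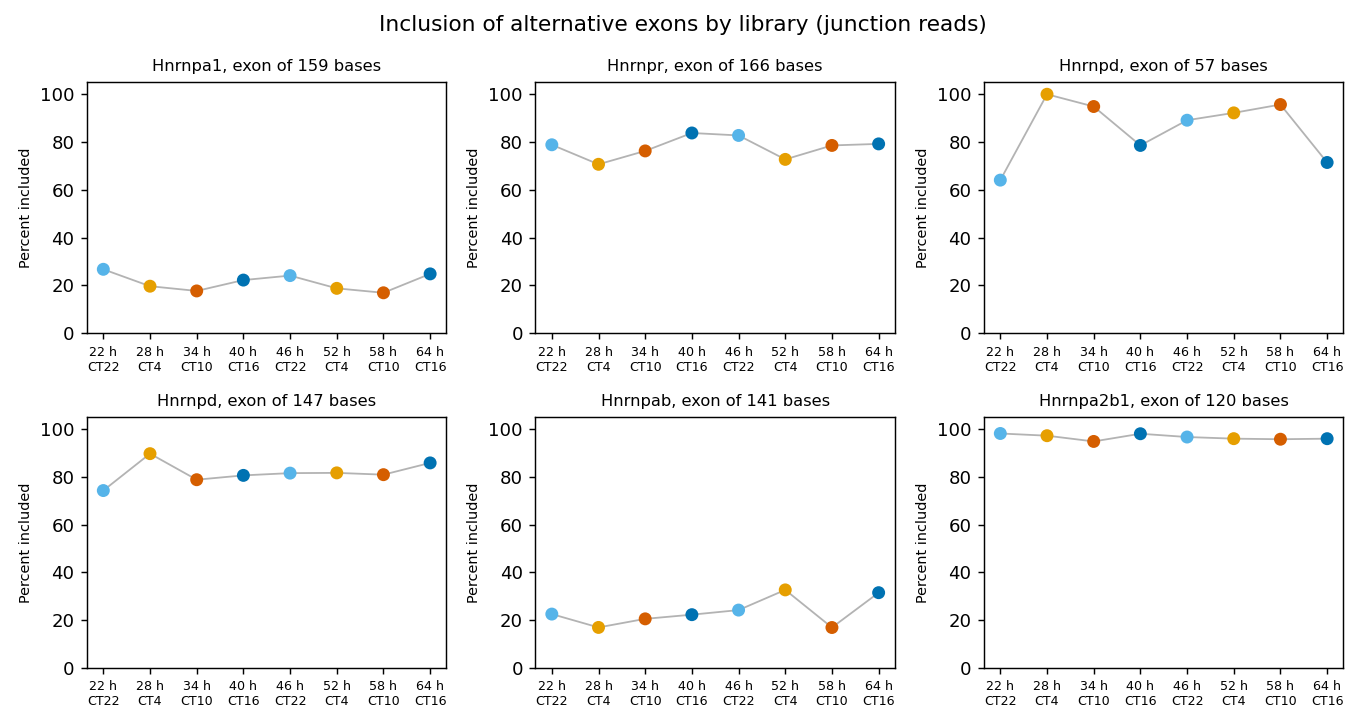
Percent inclusion of 6 alternative hnRNP exons (vertical axes, 0 to 100) by time of collection, 1 point per library, coloured by circadian time. The Hnrnpa1 exon is at 16.9% to 19.6% in the 4 day libraries and 22.2% to 26.7% in the 4 night libraries, the Hnrnpa2b1 exon stays between 94.8% and 98.1%, and the 57-base Hnrnpd exon is lowest at 22 and 64 h.

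The coding sequences of 4 of these exons are given because they are the stretches whose inclusion was measured. They come from GENCODE M21 transcripts on GRCm38, matched within the gene by exon length and the lengths of both neighbouring introns. All lie wholly in coding sequence and have lengths divisible by 3. Capitals mark TATGG, searched on the sense strand only.
Hnrnpa2b1 120-base exon, minus strand, GRCm38 chr6:51464428-51464547: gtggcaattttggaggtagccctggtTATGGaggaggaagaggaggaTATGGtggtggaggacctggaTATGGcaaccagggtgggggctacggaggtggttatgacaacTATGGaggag
Hnrnpd 147-base exon, minus strand, GRCm38 chr5:99963731-99963877: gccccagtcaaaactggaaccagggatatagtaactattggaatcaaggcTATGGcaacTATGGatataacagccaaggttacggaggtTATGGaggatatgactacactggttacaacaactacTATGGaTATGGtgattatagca
Hnrnpab 141-base exon, minus strand, GRCm38 chr11:51601750-51601890: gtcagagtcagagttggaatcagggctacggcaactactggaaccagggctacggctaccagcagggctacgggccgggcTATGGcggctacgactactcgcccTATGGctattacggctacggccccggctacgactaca
Hnrnpd 57-base exon, minus strand, GRCm38 chr5:99976534-99976590: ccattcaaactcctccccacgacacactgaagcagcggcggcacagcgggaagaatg

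The letters TATGG stood 4 times in the exon of Hnrnpa2b1, 5 times in the longer Hnrnpd exon, 2 times in that of Hnrnpab and 0 times in the shorter Hnrnpd exon. Of 98483 internal coding exons of 57 to 147 bases in GENCODE M21, 8.6% held it at least 1 time and 0.0366% at least 3 times. The first 3 exons encode glycine- and tyrosine-rich stretches of the C-terminal parts of A/B-type hnRNPs, and this repeat describes their sequence only. Inclusion ranged from 16.9% to 98.1% among them, so exons with the shared letters were included at unlike levels.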

How the data were processed

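The members and gene lists were chosen with earlier results of these data known. RNA of 8 pooled SCN libraries was aligned with STAR 2.3.0e to mm9, per the submitters' processing notes. The authors deposited whole-number read counts per gene, intron, exon and junction. The counting tool, and why gene and intron totals were nearly equal across libraries, have no statement in the sources used here. JTK adjusted p-values, q-values and lags in hours are as the authors deposited them, per the file headers. No column of sample values was left unmapped (0).

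Counts were fitted over each whole table with edgeR 4.0.16 in R 4.3.3 (TMM, quasi-likelihood F test, Benjamini-Hochberg at 0.05). Only features reaching 10 reads in 2 or more libraries were tested. Terms were day-night and dusk-dawn, together a 24-h cosine (2 degrees of freedom, 5 residual). Introns and junctions used the effective library sizes of the genes. Intron reads were summed over 137093 non-overlapping introns of 1 symbol. Their ratio to gene reads was tested with limma 3.58.1 (prior count 2), and junction usage with diffSpliceDGE. The scripts were tested on simulated data. Introns and junctions that name several genes stayed in the fits but were assigned to no member. Antisense tables were not used here. Between libraries, edgeR estimated a biological coefficient of variation of 0.143 (genes) and 0.346 (junctions).

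Named were members past a threshold, the 15 with the lowest 24-h p, the 5 highest and lowest levels, the 5 highest intron ratios, the 6 introns and junctions and the 5 junction-usage genes with the lowest p. The CT10 pattern, the exons and members named in lists of counts fall outside that rule. Alternatives were DESeq2 1.42.0, its size factors, other read minimums, added 12-h or cycle terms, prior count 0.5, all introns of a gene, a gene-level F test, each library left out and, added after the data were seen, 2 covariates, introns without a listed exon, single junctions of the Hnrnpa1 exon and the summed share without abundant members. Sequences are printed for 4 of the described exons only.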

Additional observations from a re-analysis of the deposited data

Results flagged for a closer look

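Among the 15 member genes, 6 introns, 6 junctions and 3 exons with the lowest p or with separate day and night libraries, the 4 day and the 4 night libraries were each checked for 1 library far from the others (60 groups; chance alone marks about 1 in 20). In the night libraries, the first junction of Hnrnpa3 had 145 reads in CT22 replicate 1, against 26, 8 and 7, so that the gap to the nearest library was 0.862 of the whole range. In the day libraries, Rbm12b had 14.6 CPM in CT10 replicate 2, against 12.5, 12.2 and 12.1 CPM, a gap of 0.839 of the range.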

How the results depend on the processing

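No paired analysis was possible because the labels give no replicate numbers; a term for the cycle, which blocks libraries by cycle, was fitted instead. The count of 0 in the 24-h gene test became 1 (Hnrnpm) with DESeq2 and 1 without a read minimum. Those settings called 96 of 15217 and 362 of 20741 genes in all, against 17 in the main fit. The day-night count of 0 also became 1 with each, where 66 and 137 genes were called in all, against 16. It was 1 with the oligodendrocyte term too (34 genes in all), and it changed when CT22 replicate 2 was left out. Member introns numbered 2 without a read minimum, where 247 of 176269 introns passed in all, against 58 of 62118 in the main fit. Their number also changed when CT22 replicate 2 was left out. Member junctions numbered 0 with DESeq2, 5 without a read minimum, 0 with at least 50 reads, 0 with a 12-h term, 0 with a cycle term, 0 with the first-junction term and 0 to 1 with single libraries left out. Day-night junction usage gave 2 members without a read minimum, 0 with at least 50 reads, 0 with a cycle term, 0 by a gene-level F test, 0 with the oligodendrocyte term, 0 with the first-junction term and 0 to 2 with single libraries left out (2 without CT16 replicate 1). Dusk-dawn usage gave 1 without a read minimum. The median day-night log2 fold, -0.06, was -0.031 with at least 50 reads, -0.091 with the first-junction term and -0.09 to -0.039 with single libraries left out. The median dusk-dawn log2 fold, -0.07, was -0.077 with DESeq2 size factors, -0.085 with at least 50 reads, -0.053 with the oligodendrocyte term and -0.094 to -0.062 with single libraries left out. No result changed sign in these alternatives, and the cause of the changes was not tested. With 2 libraries per time and 5 residual degrees of freedom, and a coefficient of variation of 0.346 for junctions, small differences were not detectable at this depth.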
